A study of Mus musculus with 16 samples.

Results

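The genes described here encode the matrix metalloproteinases (MMPs), their tissue inhibitors (TIMPs), and the ADAM and ADAMTS proteases. They were chosen by name: every gene whose array name is Mmp, Timp, Adam or Adamts followed directly by a digit, each represented by its brightest probe. This gave 72 of the 28482 genes on the array: 21 Mmp, 4 Timp, 30 Adam and 17 Adamts genes, covered by 122 probes.

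Their transcripts were measured on 16 one-colour arrays, 1 per sample, in 4 groups of 4 aorta samples. The groups were medroxyprogesterone acetate (MPA) with its own placebo group, and norethisterone acetate (NET-A) with its own placebo group; both compounds are synthetic progestins used in contraception and menopausal hormone therapy. All 4 groups came from ovariectomized female C57BL/6 mice deficient in ApoE, a strain prone to atherosclerosis, that received a high-fat Western-type diet. Ovaries were removed at 4 to 5 weeks of age and pellets built to release MPA, NET-A or placebo for 90 days were placed under the skin 2 weeks later. The thoracic and upper abdominal aorta was taken after 78 to 90 days of treatment. The labels give no dose and do not say whether the numbered samples of a group are separate animals, so p-values cover only the spread among these arrays, which may be technical.

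MMPs are zinc-dependent enzymes that cut collagens, elastin and other matrix proteins, and TIMPs block them by binding their active sites. ADAMs are membrane-bound relatives that release the outer parts of cytokines, growth factors and receptors from the cell surface, and ADAMTS proteases are secreted and cut proteoglycans, procollagens and von Willebrand factor. In the atherosclerotic artery, these enzymes are known for remodelling the vessel wall and the plaque cap, with macrophages and smooth muscle cells among their sources. The comparison of each progestin with placebo asks how the hormone alters transcripts in such a vessel.

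Levels are log2 signals relative to the 75th percentile of the array, and a level says nothing about another gene, since every gene has its own probe. A probe counted as detected where the scanner software called it well above background, and genes detected on at least 4 of the 8 arrays of an experiment were compared there. Detected spots made up 46.3% to 60.6% of an array in the MPA experiment and 62.3% to 78.5% in the NET-A experiment, and the number of arrays limits the precision of every value. The labelled tissue was borne out by its defining markers: all 8 smooth muscle markers were detected in each group, with Acta2 (smooth muscle actin) and Cnn1 (calponin) on all 16 arrays. Placebo replicate 3 of the MPA experiment stood apart in skeletal muscle markers (summed signal 75.3, the other placebo arrays 5.90 to 8.87), and NET-A replicate 2 in brown adipocyte markers (755, the other NET-A arrays 125 to 290). In whole aortas, fewer cells of a type and less RNA per cell cannot be told apart.

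Several MMP genes lie side by side on chromosome 9. RefSeq promoter windows (build GRCm38.p6, 250 bases before to 50 after each start site) were matched for 43 of the 72 genes. The motif TGAGTCA, read here on both strands, is bound by the AP-1 family of transcription factors. It was found in the windows of 6 of the 8 chromosome 9 Mmp genes that were matched, but not in those of Mmp8 and Mmp20. In all, 9 of the 43 genes had it, where 5.95% of all 27025 genes and 5.2% of all 32851 windows did. The other 3 genes with the motif were Adam19, Adam1b and Adam29. The 6 stretches of the chromosome 9 genes are shown with the motif in capitals and 22 bases on each side, all on the plus strand and all upstream of the start site. They lie at chr9:7272457-7272507 (Mmp13), chr9:7347308-7347358 (Mmp12, at the second of its listed start sites), chr9:7445754-7445804 (Mmp3), chr9:7464046-7464096 (Mmp1a), chr9:7502257-7502307 (Mmp10) and chr9:7692005-7692055 (Mmp7).
Mmp13: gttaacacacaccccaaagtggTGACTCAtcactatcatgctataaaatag
Mmp12: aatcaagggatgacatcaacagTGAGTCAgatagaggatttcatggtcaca
Mmp3: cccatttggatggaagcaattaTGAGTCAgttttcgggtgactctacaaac
Mmp1a: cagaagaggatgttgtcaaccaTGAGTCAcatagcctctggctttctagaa
Mmp10: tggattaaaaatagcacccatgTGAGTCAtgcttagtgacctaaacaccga
Mmp7: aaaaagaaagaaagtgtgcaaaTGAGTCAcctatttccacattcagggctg

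The motif began 35 bases before the start site in Mmp13 and 73 bases before it in Mmp1a, the nearest and the farthest of the 6. Such a match is a description of the sequence, not evidence of binding. The palindromic consensus shared by the progesterone, glucocorticoid and androgen receptors (AGAACA and its inverted repeat, 3 bases apart) was in none of the windows of these 43 genes and in 0.00913% of all windows.

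Detection set the first boundary of what could be compared. Of the 72 genes, 28 were detected on all 16 arrays, 36 on some and 8 on none: Mmp20, Mmp25, Adam1b, Adam7, Adam22, Adam29, Adam39 and Adamts13, the protease that trims von Willebrand factor. All 4 TIMPs and 8 of the 9 ADAMs of broad expression were detected on every array, the exception being Adam12, detected on 1 NET-A array and 1 placebo array. Of the 18 ADAMs known mainly from testis and epididymis, 1 (Adam5) was detected on all arrays and 4 on none. A second Adam5 probe was detected on 0 of 8 arrays of the MPA experiment and on 6 of 8 of the NET-A experiment. Mmp2, the constitutive gelatinase, was detected on each array where it was measured; its spot on NET-A replicate 4 was marked as an outlier and left out, so its NET-A values have n = 3.

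**Figure D1:**
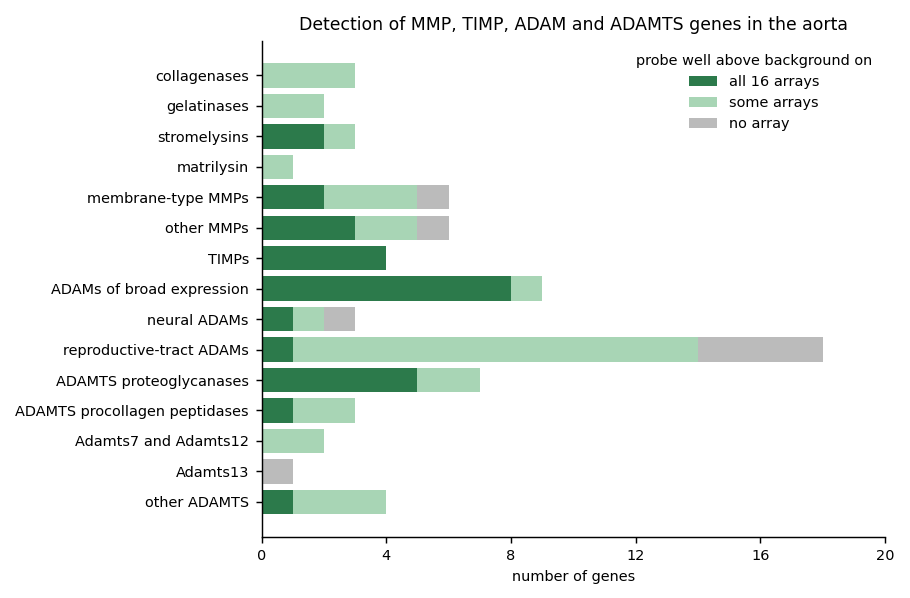
Number of genes in each subfamily (horizontal axis) whose probe was well above background on all 16 arrays, on some, or on none. TIMPs and ADAMs of broad expression were detected nearly throughout, whereas most reproductive-tract ADAMs were detected on some arrays or none.

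The experiments differed in which genes they could see. The filter kept 38 of the 72 genes in the MPA experiment and 58 in the NET-A experiment, 37 of them in both. Mmp7 (matrilysin) and Adamts18 were detected on all 8 arrays of the NET-A experiment and on 0 of 8 of the MPA experiment. The reverse held for Adamts20, a versican-cleaving protease, detected on 8 of 8 arrays of the MPA experiment against 2 of 8, and for the testis gene Adam18, on 8 of 8 against 4 of 8. Both contrasts rest on the brightest probe alone. The other Adamts20 probes were detected on 0 of 8 arrays of the MPA experiment, and a second Adam18 probe on 0 of 8 in either experiment. Of the 37 genes kept in both, 13 had placebo means more than 1 log2 unit apart between the experiments, where 36.8% of the 15174 genes kept in both did, while the difference between a progestin and its own placebo passed 1 unit for 0 of these genes with MPA (1.71% of all genes tested) and for 2 with NET-A (2.14%). Adam33 averaged -1.79 in the placebo group of MPA and 1.11 in that of NET-A, and Adam10 averaged 0.03 and -2.17. Experiment, slides and scanner software version cannot be told apart here, so each progestin was set only against its own placebo.

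None of these genes passed the adjusted threshold of 0.05 (limma, Benjamini-Hochberg over all genes kept) with MPA, with NET-A or in the difference between the responses, and neither did any other gene on the array (0.0% called in each). With MPA, 25 of the 38 genes kept had a lower mean than in placebo and 13 a higher one, against 49.5% of all 15287 genes lower, with a median difference of -0.14 log2 units where that of all genes was 0.003. That median was -0.26 without placebo replicate 3 and -0.07 without placebo replicate 4. With NET-A, 39 of 58 were lower and 19 higher, against 54.3% of all 21180 genes lower, with a median of -0.09 where that of all genes was -0.02. The NET-A median turned to 0.02 without NET-A replicate 2. At an unadjusted p under 0.05 stood 4 of 38 genes with MPA (6.25% of all genes tested) and 5 of 58 with NET-A (6.17%). The 4 arrays of each group did not overlap for 2 of 38 genes with MPA (3.85% of all genes) and for 3 of 58 with NET-A (3.88%). In data simulated at this size, the same test found 44% of genes with a log2 difference of 1 in the MPA comparison and 49% in the NET-A comparison, and 92% and 78% of those with a difference of 2. The simulated noise was drawn independently for each gene and array, with 100 genes changed by each amount. Deviations of an array across many genes were not simulated, so these shares need not hold for the real arrays.

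**Figure D2:**
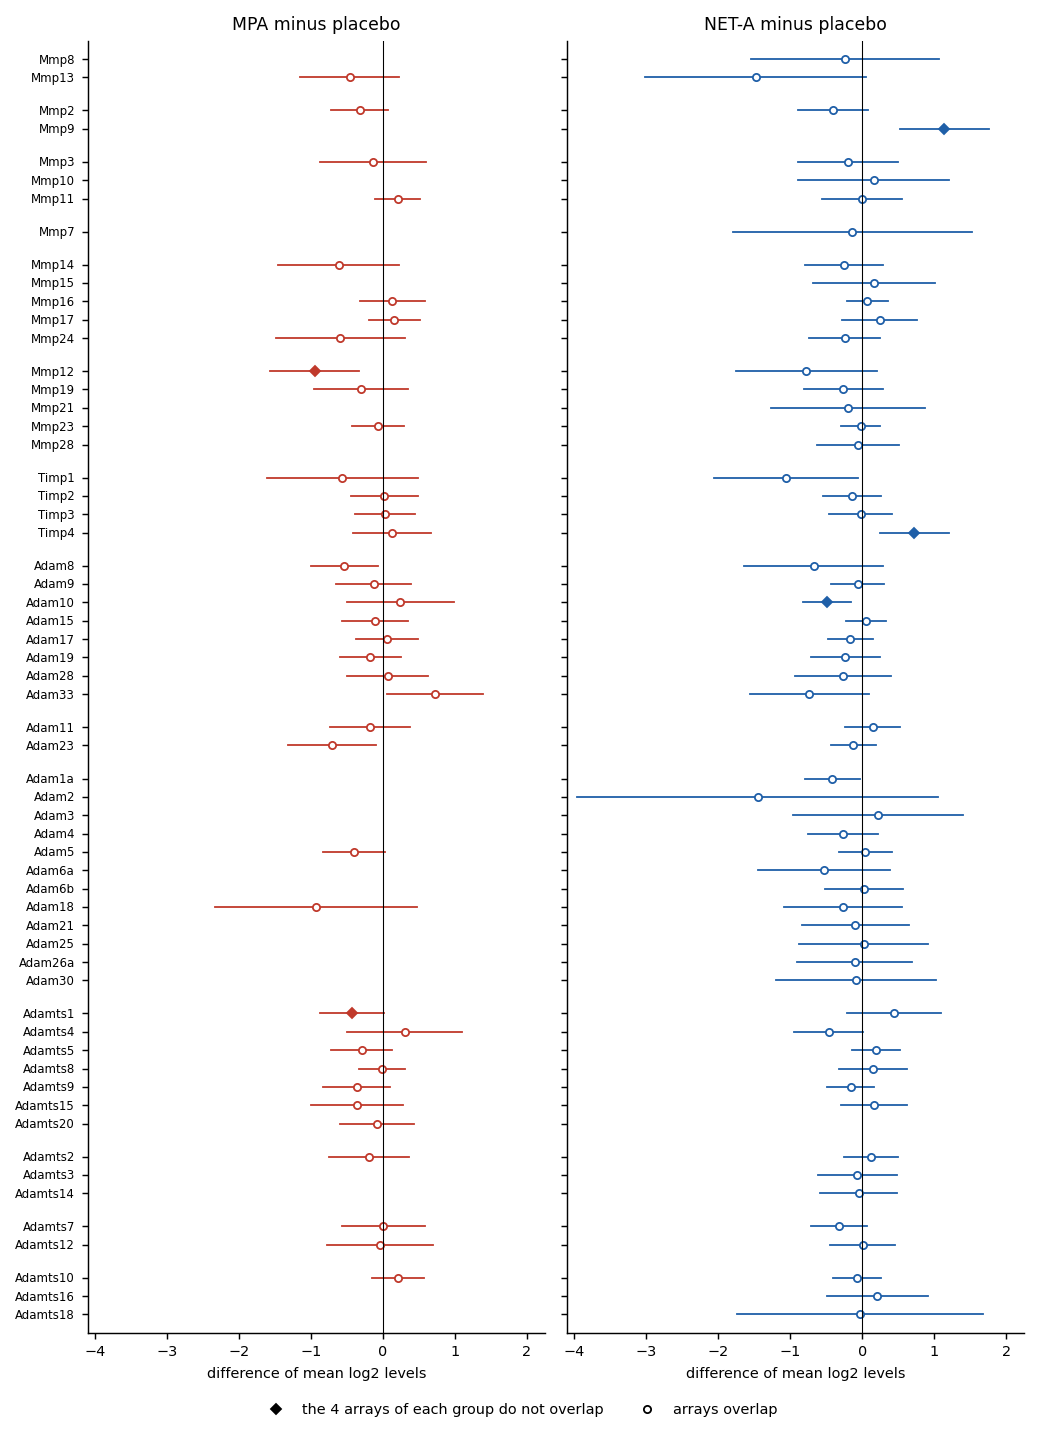
Difference of mean log2 levels between each progestin and its placebo (horizontal axis) with its 95% interval from limma, for every gene kept, in blocks by subfamily. Filled diamonds mark the 5 comparisons whose arrays did not overlap: Mmp12 and Adamts1 lower with MPA, Mmp9 and Timp4 higher with NET-A, and Adam10 lower with NET-A.

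Among the MMPs, the arrays of both groups separated for Mmp12, lower with MPA, and for Mmp9, higher with NET-A. Mmp12 encodes the macrophage elastase. The probes of these genes are shown because the results rest on what they bind. That of Mmp12, at chromosome 9, 7354810 to 7355325 (mm9), spans more of the genome than its 60 bases, and that of Mmp9 lies at chromosome 2, 164780303 to 164780362 (mm9).
Mmp12 probe: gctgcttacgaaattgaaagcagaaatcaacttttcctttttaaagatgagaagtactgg
Mmp9 probe: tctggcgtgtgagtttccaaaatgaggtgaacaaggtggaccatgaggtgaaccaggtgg

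The log2 level of Mmp12 was 0.10, -0.62, -0.49 and 0.15 in the MPA aortas, against 0.22, 1.17, 1.07 and 0.47 in their placebo group. Every MPA array lay below every placebo array. The difference was -0.95 ± 0.27 (SE, n = 4 each), with a 95% interval of -1.57 to -0.33, and it did not pass (limma, adjusted p = 0.755). It was -0.96 within slide 1 and -0.94 within slide 2, each of which carried 2 arrays of both groups, and -0.84 without placebo replicate 3.

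With NET-A, Mmp12 was -1.54, -0.50, -1.26 and -0.99, against -0.67, -0.68, -0.83 and 1.00 in placebo. The groups overlapped, and placebo replicate 4 lay well above the other 3. The difference of -0.78 ± 0.43 (adjusted p = 0.864) became -0.35 ± 0.25 without that array. Means of the macrophage markers were also lower, for all 13 kept in MPA aortas (median -0.53) and all 13 in NET-A aortas (median -0.56). Of these markers, 0 of the 13 passed in either comparison. Their summed signal ran from 115 to 143 in MPA aortas, 1 outlier spot of Lgals3 being left out, against 132 to 302 in placebo. It ran from 52.4 to 85.4 in NET-A aortas, against 61.6 to 188 in placebo, where the highest value belonged to replicate 4, the array highest in Mmp12. In the placebo group of MPA, replicate 4 had the highest sum (302) but an Mmp12 level of 0.47, below replicates 2 and 3 (1.17 and 1.07). The part of the macrophage markers in the Mmp12 values was not tested.

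Mmp9 encodes gelatinase B, which is stored in neutrophil granules and also made by macrophages. The Mmp9 log2 level was -3.14, -2.75, -2.97 and -2.36 in the NET-A aortas, against -4.30, -3.29, -4.32 and -3.84 in their placebo group. Each NET-A array was above each placebo array, of which 3 were detected. The difference of 1.14 ± 0.27 (95% interval 0.52 to 1.76) had the smallest p among these genes and did not pass (adjusted p = 0.611). With normexp background correction it shrank to 0.06 ± 0.40; over the other alternatives and with 1 array left out it ran from 0.99 to 1.53. A second Mmp9 probe differed by 1.25, in the same direction.

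In the MPA experiment, Mmp9 was detected on 3 of 4 MPA arrays and on 0 of 4 placebo arrays, too few to enter the fit. Its measured values were -2.24, -2.39, -3.34 and -1.86 with MPA, against -4.17, -5.74, -3.24 and -3.38 in placebo, MPA replicate 2 (-2.39) being the MPA array not well above background. The groups overlapped, MPA replicate 3 lying below 1 placebo array. Each undetected placebo value was counted as the higher of its own signal and the dimmest detected probe of its array. MPA replicate 2 was counted at its own signal. On that count the MPA mean was 2.13-fold higher, which is not a lower bound. The level of MPA replicate 2 (-2.39) lay close to the dimmest detected probe of that array (-2.51). It was also the array with the smallest share of detected spots (46.3%). Mmp8, the neutrophil collagenase on chromosome 9, was detected on 2 of 4 MPA arrays and 0 of 4 placebo arrays, and with NET-A it differed by -0.25 ± 0.57 (adjusted p = 0.998).

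Most neutrophil markers had higher means in both treated groups, and none passed. With MPA, 6 of 7 kept were higher (median 1.60). The summed signal of all 11 markers ran from 37.1 to 124 against 6.74 to 27.1 in placebo, without overlap. That sum is weighted to bright genes, and S100a9 was the brightest, at a mean log2 level of 5.90 with MPA. The mean log2 level of the 11 markers did overlap, at -2.45 to -0.41 with MPA against -3.44 to -1.63 in placebo. With NET-A, 7 of 10 kept were higher (median 0.78), and the sums of the 11 were 6.67 to 19.7 against 3.95 to 7.74. S100a9, a calprotectin subunit abundant in neutrophils, had the smallest p of the list in both comparisons, at 2.56 with MPA and 1.25 with NET-A (adjusted p = 0.704 and 0.631). The granule gene Lcn2, detected on all 16 arrays, had lower means with both (-0.51 with MPA and -1.27 with NET-A), while the azurophil granule gene Elane was detected on no array. Erythroid markers were higher for 5 of 5 with both progestins (medians 1.07 with MPA and 1.53 with NET-A). The part of these markers in the Mmp9 values was not tested.

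**Figure D3:**
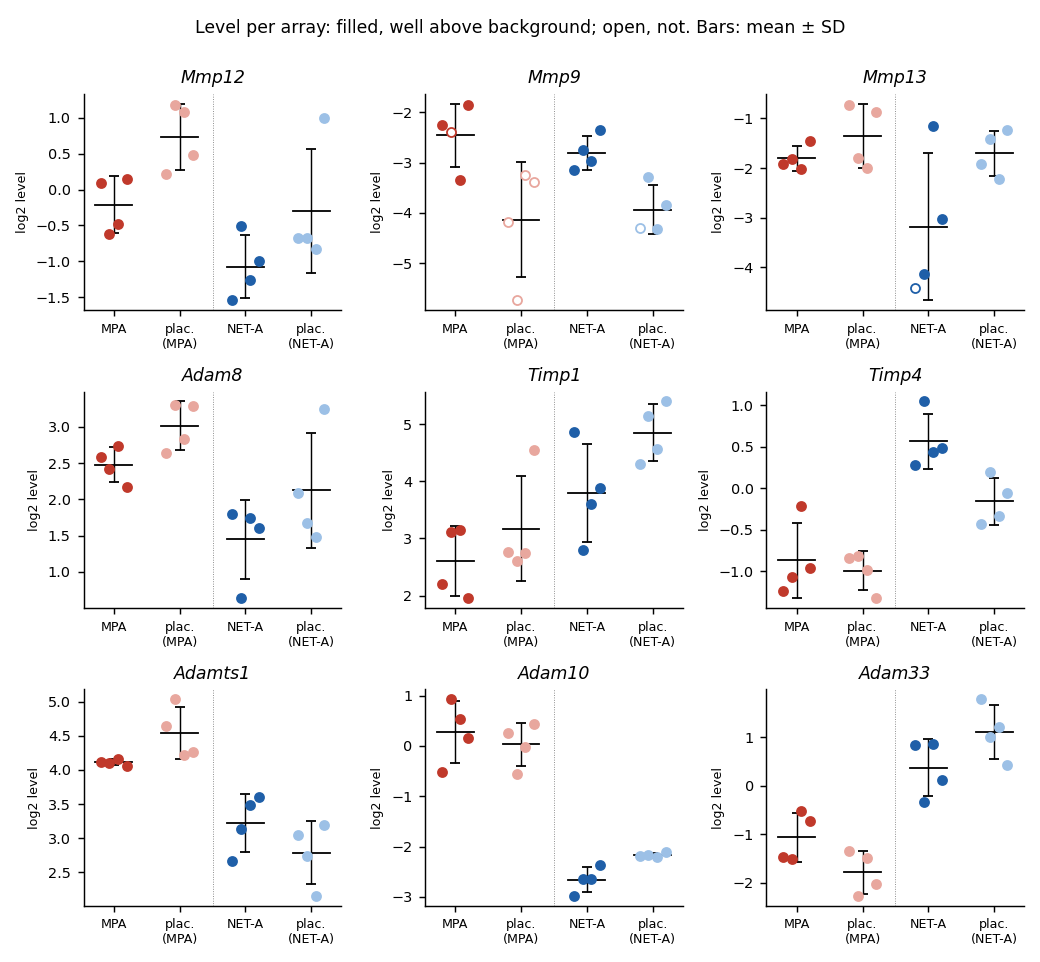
Log2 level of 9 genes on each array (vertical axes differ between genes), with group means and SD; filled points were well above background and open points were not. Mmp12 and Adamts1 separate the MPA arrays from their placebo arrays, and Mmp9, Timp4 and Adam10 separate the NET-A arrays from theirs. Single placebo arrays stand apart in Mmp12 and Timp1, and NET-A replicate 2 stands apart in Adam8.

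The remaining collagenases and stromelysins gave wide intervals. Mmp13, the main rodent interstitial collagenase, was -4.42, -4.14, -1.14 and -3.02 with NET-A, against -1.93, -1.42, -2.23 and -1.23 in placebo. The lowest of these values, -4.42 on NET-A replicate 1, was not well above background. NET-A replicate 3 was the highest of the 8 arrays of that experiment, and the other 3 NET-A arrays were below every placebo array. The difference was -1.48 ± 0.67 (95% interval -3.02 to 0.06, adjusted p = 0.812), and -0.46 ± 0.30 with MPA (adjusted p = 0.846), where it was 0.006 with normexp background correction. Mmp3, stromelysin-1, which cuts proteoglycans and activates other MMPs, differed by -0.14 ± 0.32 with MPA and by -0.20 ± 0.30 with NET-A. Of the genes with the AP-1 motif in their windows, these and Mmp12 were the Mmp genes kept in both experiments. All 3 had negative differences with both progestins in this fit. So did 40.5% of the 37 genes of these families kept in both experiments, and 25.4% of all genes kept in both. The sign of Mmp3 with MPA held in 19 of 22 alternatives, and the part of the motif in these values was not tested. Mmp7 (-0.14 ± 0.72) and Mmp10 (0.16 ± 0.46) were kept in the NET-A experiment alone and Mmp1a in neither.

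Mmp2, which cuts basement membrane collagen, and Mmp14, the membrane-type enzyme that activates it, had lower means with both progestins. The log2 level of Mmp2 was 2.0, 1.56, 1.72 and 1.82 with MPA, against 1.97, 2.40, 1.82 and 2.21 in placebo, a difference of -0.33 ± 0.17 (adjusted p = 0.836). With NET-A it was 2.61, 2.56 and 2.26, against 2.87, 2.90, 2.50 and 3.27 (-0.41 ± 0.21, adjusted p = 0.854). The groups overlapped in both. With the outlier spot of NET-A replicate 4 kept, the NET-A difference was -0.01 ± 0.38, and from the authors' series table it was -0.03. Mmp14 differed by -0.62 ± 0.37 with MPA (adjusted p = 0.846), by -0.99 within slide 1 and -0.25 within slide 2. With NET-A it differed by -0.25 ± 0.24, and by -0.07 without placebo replicate 4.

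Mmp24, a membrane-type enzyme known from the nervous system, differed by -0.59 ± 0.40 with MPA (adjusted p = 0.847) and by -0.25 ± 0.22 with NET-A. Mmp16 and Mmp17 were close to placebo and differed by 0.13 and 0.16 with MPA and by 0.07 and 0.24 with NET-A. Mmp11 (stromelysin-3), Mmp23 and Mmp19 all lay within 0.31 of 0 in both comparisons. In all, 8 of 11 Mmp genes kept were lower with MPA (median -0.31) and 13 of 18 with NET-A (median -0.17).

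The inhibitors behaved one by one rather than as a group. Timp1, the inducible inhibitor, has its probe at chromosome X, 20451675 to 20451733 (mm9). In the NET-A aortas its log2 level was 4.87, 2.80, 3.61 and 3.88, against 4.30, 5.14, 4.56 and 5.40 in placebo. Only NET-A replicate 1 reached the range of the placebo arrays. The difference was -1.06 ± 0.43 (95% interval -2.06 to -0.06, adjusted p = 0.789), and it was -1.64 within slide 5, which carried 2 arrays of each group. A second Timp1 probe differed by -1.17.

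With MPA, Timp1 was 2.20, 3.10, 3.15 and 1.96, against 2.76, 2.61, 2.75 and 4.54 in placebo. Placebo replicate 4 lay far above the other arrays, and the difference of -0.56 ± 0.46 (adjusted p = 0.866) became -0.11 ± 0.32 without it. That array also had the highest macrophage sum of the group. In the NET-A experiment, placebo replicate 4 was likewise the highest of its group in both. NET-A replicate 1, however, was highest of its group in Timp1 (4.87) and lowest in the macrophage sum (52.4). The part of the macrophage markers in the Timp1 values was not tested.

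Timp4, an inhibitor known from heart, muscle and fat, was 0.29, 1.05, 0.44 and 0.49 with NET-A, against -0.43, 0.19, -0.33 and -0.06 in placebo. The groups did not overlap. The Timp4 difference was 0.72 ± 0.21 (95% interval 0.24 to 1.20, adjusted p = 0.631) and 0.97 within slide 5. With MPA it was 0.12 ± 0.24, which was -0.32 within slide 1 and 0.57 within slide 2. Skeletal muscle markers were higher in NET-A aortas for 9 of 9 kept (median 1.27). Of these, 5 had an unadjusted p under 0.05 (limma), where 6.17% of all genes tested did, and 0 passed. Their sums overlapped, at 38.9 to 55.6 against 36.5 to 52.8, but are weighted to Acta1, the brightest. Acta1 averaged 5.41 with NET-A and 5.37 in placebo. Adipocyte markers were higher for 5 of 7 (median 0.08). Brown adipocyte markers were lower for 5 of 5 (median -0.53), although NET-A replicate 2, the array highest in Timp4, had the highest sums of the group in both fat lists. Without that array the Timp4 difference was 0.56 ± 0.18, and the part of these markers in it was not tested. Timp2 and Timp3, the constitutive inhibitors of the vessel wall, lay close to placebo at 0.02 ± 0.21 and 0.03 ± 0.18 with MPA and at -0.14 ± 0.17 and -0.02 ± 0.19 with NET-A. The 95% intervals of these 4 differences reached no farther from 0 than -0.54 log2 units.

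Among the ADAMs of broad expression, Adam8, Adam10 and Adam33 had the differences farthest from 0. Adam8, a sheddase of leukocytes, was 2.58, 2.42, 2.74 and 2.17 with MPA, against 2.64, 3.31, 2.83 and 3.29 in placebo. A single placebo array came within the MPA range. Its difference was -0.54 ± 0.21 (adjusted p = 0.755), and -0.47 and -0.60 within the slides. With NET-A, Adam8 differed by -0.67 ± 0.42 (adjusted p = 0.896), and by -0.40 ± 0.41 without NET-A replicate 2, the array with the lowest value; the highest was again placebo replicate 4, at 3.25.

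Adam10, which cuts Notch, cadherins and the chemokine Cx3cl1, has its probe at chromosome 9, 70625964 to 70626022 (mm9). The Adam10 log2 level was -2.98, -2.65, -2.64 and -2.37 with NET-A, against -2.19, -2.18, -2.22 and -2.10 in placebo. The placebo arrays lay close together and above every NET-A array. The difference was -0.49 ± 0.15 (95% interval -0.82 to -0.16, adjusted p = 0.631), and -0.35 within slide 5. With MPA, Adam10 differed by 0.24 ± 0.33. Adam17, the sheddase of tumour necrosis factor, was close to placebo at 0.05 ± 0.19 with MPA and -0.17 ± 0.14 with NET-A.

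Adam33, a protease of smooth muscle and mesenchymal cells, gave opposite signs in the experiments. Its log2 level was -1.48, -1.51, -0.53 and -0.73 with MPA, against -1.35, -2.27, -1.50 and -2.04 in placebo. Values with NET-A were 0.84, -0.34, 0.87 and 0.12, against 1.79, 1.01, 1.21 and 0.42. The groups overlapped in both experiments. The difference was 0.72 ± 0.30 with MPA (adjusted p = 0.765), 0.31 within slide 1 and 1.13 within slide 2, and -0.74 ± 0.36 with NET-A (adjusted p = 0.841). A second probe of Adam33, detected on every array, differed by 0.55 and -0.13.

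The other ADAMs of broad expression lay close to placebo. Adam9 differed by -0.13 and -0.07, Adam15 by -0.12 and 0.05, and Adam19 by -0.18 and -0.24 with MPA and NET-A. Adam23, an adhesion protein of neurons without protease activity, differed by -0.71 ± 0.27 with MPA (adjusted p = 0.755), from a probe detected on 2 arrays of each group, and by 0.78 with normexp background correction. The testis gene Adam18 differed by -0.93 ± 0.62 with MPA (adjusted p = 0.846). Adam1a, another of the ADAMs known mainly from testis and epididymis, differed by -0.41 ± 0.17 with NET-A (adjusted p = 0.789). Its second probe, detected on all 8 arrays, differed by 0.64, the opposite way, and the mean of both by 0.11.

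ADAMTS proteoglycanases cut versican and aggrecan, and 6 of the 7 kept had lower means with MPA (median -0.30), whereas 4 of the 6 kept with NET-A had higher ones (median 0.15). Adamts1, which cleaves versican in the arterial wall, was 4.12, 4.10, 4.16 and 4.06 with MPA, against 4.64, 5.04, 4.22 and 4.26 in placebo. The MPA arrays lay closely together, below all placebo arrays. The difference was -0.43 ± 0.20 (adjusted p = 0.798), -0.73 within slide 1, -0.12 within slide 2 and -0.53 without placebo replicate 3. With NET-A, Adamts1 was 2.66, 3.14, 3.49 and 3.60, against 3.04, 2.74, 2.15 and 3.20, an overlapping difference of 0.44 ± 0.28 (adjusted p = 0.902). A second probe differed by -0.30 with MPA and 0.41 with NET-A.

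Adamts5, an aggrecanase, differed by -0.30 ± 0.19 with MPA and 0.19 ± 0.15 with NET-A, and Adamts4, the other main aggrecanase, by 0.30 ± 0.35 and -0.47 ± 0.21. Adamts9 differed by -0.37 ± 0.21 and -0.16 ± 0.14, and Adamts15 by -0.36 ± 0.28 and 0.16 ± 0.20. No one direction held for these genes across the progestins. Adamts2, which trims fibrillar procollagen, differed by -0.19 ± 0.25 and 0.12 ± 0.16, and Adamts7 and Adamts12, which cut cartilage oligomeric matrix protein (Comp), by 0.004 and -0.04 with MPA and by -0.33 and 0.003 with NET-A.

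For the 37 genes kept in both experiments, the response to MPA was set directly against the response to NET-A, as the first less the second over all 16 arrays. Adam33 had the smallest p, with a difference of 1.46 ± 0.48 (95% interval 0.43 to 2.49, adjusted p = 0.563), followed by Adamts1 at -0.87 ± 0.35 (-1.61 to -0.12, adjusted p = 0.662). These were the 2 of 37 at an unadjusted p under 0.05 (6.87% of all 15174 genes). Adamts5 (-0.49 ± 0.23), Adam10 (0.73 ± 0.37), Adam23 (-0.58 ± 0.31) and Timp4 (-0.60 ± 0.32) followed. The Adam33 value is that of the brightest probe, and its second probe differed by 0.55 with MPA and -0.13 with NET-A. The doses are not given, so the compounds are compared here only as the pellets used.

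Taken by sign alone, 15 of the 37 genes (40.5%) were lower than placebo with both progestins, where 25.4% of all genes kept in both were, and 3 were higher with both. MPA alone was lower for 9 and NET-A alone for 10. The 15 included Mmp12, Mmp13, Timp1 and Adam8, whose values are given above. For each of them a difference shrank under some alternative processing or with an array left out. Mmp12 reached -0.35 and Adam8 -0.30 with NET-A, and Timp1 -0.03 and Mmp13 0.006 with MPA. The experiments shared no arrays, and no test was made of these counts.

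**Figure D4:**
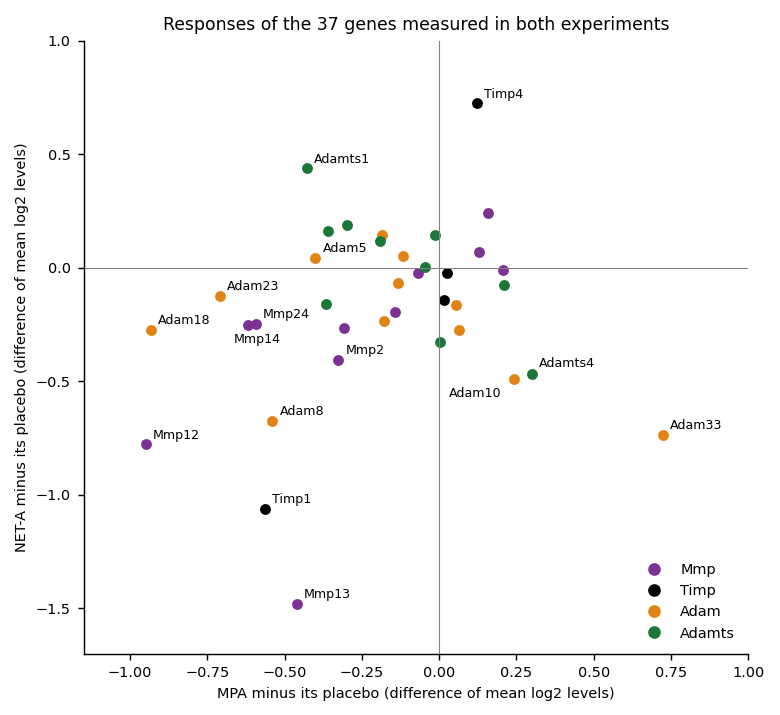
Difference between MPA and its placebo (horizontal axis) against that between NET-A and its placebo (vertical axis) for the 37 genes kept in both experiments, coloured by family. Mmp12, Timp1, Mmp13 and Adam8 lie toward the lower left, and Adam33 and Adamts1 in opposite corners.

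Genes that act around these proteases were counted on lists of inhibitors and activators, of matrix substrates and of substrates released by ADAMs, and 0 passed in any comparison. Of the regulators, 17 of 28 kept were lower with MPA and 11 of 29 with NET-A. With NET-A, the smallest p-values of that list belonged to Plg (plasminogen) at 1.16, the tetraspanin Tspan33, a partner of Adam10, at 1.35 (adjusted p = 0.606 for both) and Plau, the urokinase that activates plasminogen, at -0.83 (adjusted p = 0.631). Matrix substrates were lower for 11 of 16 with MPA (median -0.22) and 10 of 16 with NET-A (median -0.07), and substrates of shedding for 13 of 16 (median -0.21) and 13 of 19 (median -0.08). Vcam1, an adhesion molecule shed by Adam17, differed by -0.50 with MPA and -0.80 with NET-A (adjusted p = 0.772 and 0.631), and the membrane chemokine Cxcl16, cut by Adam10, by -0.68 and -0.45 (adjusted p = 0.755 and 0.857).

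Levels also differed between slides in the NET-A experiment. Arrays on slides 3 and 4 and those on slide 5 did not overlap for 10 of the 58 genes kept (17.2%), close to the 15.0% of all genes tested that separated in this way. Mmp7 was -2.74 and -2.96 with NET-A and -2.70 and -2.44 with placebo on slides 3 and 4, but -4.84 and -4.63 with NET-A and -4.98 and -4.50 with placebo on slide 5. Adamts18 averaged -2.56 on slides 3 and 4 and -4.53 on slide 5. In 9 of the 10 the higher values were on slides 3 and 4; Adam17 was the exception, at 0.65 against 0.89. The lowest log2 level called well above background ran from -5.60 to -4.02 on slides 3 and 4 and from -6.42 to -5.81 on slide 5, and its part in these gaps was not tested. Slides 1 and 2 of the MPA experiment separated for 2 of 38 genes, Mmp19 and Timp2 (6.05% of all genes tested).

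**Figure D5:**
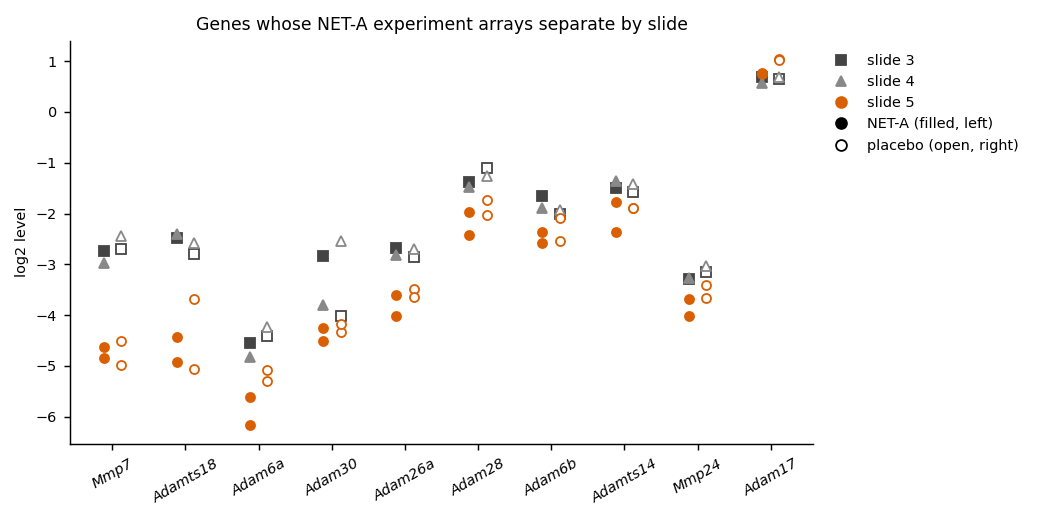
Log2 level (vertical axis) of the 10 genes whose NET-A experiment arrays on slides 3 and 4 do not overlap those on slide 5; filled symbols are NET-A arrays and open symbols placebo arrays. Mmp7 and Adamts18 show the widest gaps, near 2 log2 units, with NET-A and placebo arrays alike low on slide 5.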

How the data were processed

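Per the file headers, arrays were one-colour Agilent arrays annotated on mm9, and the deposited spot intensity was read with Feature Extraction 10.7.1.1 (MPA experiment) or 11.0.1.1 (NET-A experiment), background-subtracted and not normalized between arrays. The authors also deposited a series table of log2 values. How it was made is not stated in the sources at hand; its columns correlated with their own arrays at 0.988 to 1.00 after centring on each probe's median, and it served as an alternative only. Its scale, centring and direction are inferred.

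From log2 of the processed intensity, each array's own 75th percentile was subtracted. Spots marked as outliers were left out, 41174 probes were averaged over their spots, and each gene took its brightest probe over 16 arrays. Of the probes, 26690 matched RefSeq by accession and 3169 took a newer symbol; 106 of the 122 probes of these genes matched, and 0 had another symbol. Genes well above background on at least 4 of 8 arrays were compared by limma 3.58.1 in R 4.3.3 (lmFit, eBayes, two-sided, Benjamini-Hochberg 0.05), each progestin against the placebo group that shares its slides and the initial in its title. Values are differences of mean log2 levels ± SE, n = 4 per group unless stated. Scripts were tested on simulated data of known changes, on 14653 genes for MPA and 21114 for NET-A.

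The genes and gene lists were chosen with earlier results of these data known. Genes named with full values were, in each comparison, the 8 of smallest p, those whose groups do not overlap, those detected on at least 3 arrays of 1 group and none of the other, and a fixed set of TIMPs, MMPs, ADAMs and ADAMTSs; others are named from detection, the motif search and the slides, after their values were seen. Replicate numbers did not pair the samples: deviations of same-numbered arrays correlated from -0.230 to 0.231 (MPA) and from -0.331 to 0.328 (NET-A). Protein sequences were not used here. Alternatives in background correction, scaling, filter, probe rule, outlier spots, slide, replicate block, array weights and arrays left out are given in the closing section.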

Additional observations from a re-analysis of the deposited data

Results flagged for a closer look

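In each group of 4 arrays, the highest or lowest value was set against the rest by Dixon's criterion at 95%, for the genes kept in that experiment. This picked out 7 of 191 groups, where chance gives about 1 in 20. Placebo replicate 4 of the NET-A experiment was the high array for Mmp12 (1.00, the others -0.83 to -0.67) and Mmp14 (3.59, the others 2.84 to 2.90). Placebo replicate 4 of the MPA experiment was high for Timp1 (4.54, the others 2.61 to 2.76) and low for Adamts9 (-0.74, the others -0.49 to -0.45). Adam8 was low on NET-A replicate 2 (0.64, the others 1.61 to 1.80), and Adam15 was high on placebo replicate 2 of the NET-A experiment (3.66, the others 3.50 to 3.52). Adam2, a sperm fertilin subunit, was 0.77 on placebo replicate 1 of the NET-A experiment and -4.76 to -3.91 on the other 3 placebo arrays; its difference with NET-A was -1.45 ± 1.09 and -0.20 ± 0.23 without that array.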

How the results depend on the processing

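No gene of these families passed under any alternative run: 22 for MPA, 21 for NET-A and 27 for the difference between the responses, with lowest adjusted p-values of 0.0890, 0.297 and 0.0912 (limma). The median with MPA stayed between -0.30 and -0.05, and between -0.26 and -0.07 with 1 array left out. The median with NET-A (-0.09) was -0.30 with normexp background correction, -0.25 within slide 5 and between -0.18 and 0.02 with 1 array left out; it turned positive (0.020) without NET-A replicate 2 and was -0.18 without NET-A replicate 1. Of 1047 alternative values for 49 named differences, 5 reversed by more than their SE, all with MPA: Adam23 (0.78), Timp2 (-0.32) and Timp3 (-0.35) with normexp, and Timp3 (-0.31) and Timp4 (-0.32) within slide 1. Another 43 changed sign within their SE. The cause was not tested. The replicate number as a replicate block called 0 of these genes in each comparison. Normexp started from the mean signal in the MPA experiment and the median signal in the NET-A experiment. For genes below background on many arrays, such as Mmp8, Mmp9 in the MPA experiment and the reproductive-tract ADAMs, the signal over background limits what could be shown.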

Other observations

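Where several probes of a gene were detected, their directions were compared. In the MPA comparison they shared a direction in 10 of 15 genes, the exceptions being Adam11, Adam19, Adamts5, Adamts7 and Adamts8. With NET-A they did so in 20 of 24, the exceptions being Adam1a, Adam5, Adamts2 and Adamts12.

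The arrays also differed in how often they held the extreme value of a group over the genes kept. NET-A replicate 1 was the highest of its group for 32 of 58 genes and NET-A replicate 2 the lowest for 32 of 58. In the placebo group of MPA, replicate 3 was the lowest array for 19 of 38 genes and the highest for 1.

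Among the other lists, platelet markers were higher for 7 of 7 genes with MPA (median 0.45) and for 7 of 7 with NET-A (median 2.04), mast cell markers lower for 5 of 5 and 5 of 6, and fibroblast markers, which include the cells that make much of the matrix, lower for 7 of 8 with MPA (median -0.29) and 3 of 8 with NET-A (median 0.10). None of these markers passed in either comparison.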
